A study of Rattus norvegicus with 6 samples.

Results

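Transcripts of 10 genes that natural killer (NK) cells and cytotoxic T cells use to kill target cells were followed in whole rat lung. The genes were chosen by symbol, and each of the 10 symbols stood on 1 row of the 23802 rows in the deposited table. They are 5 genes of the cytotoxic granule (Prf1, Gzma, Gzmb, Gzmk and Nkg7), 3 receptor genes (Ncr1, Klrd1 and Klrk1) and 2 transcription factor genes (Tbx21 and Eomes). All 10 passed the filter on low counts and were tested among 15250 genes. Lungs of 3 control samples and 3 samples given monocrotaline (MCT) were compared, all from wild-type male Sprague-Dawley rats weighing 200 to 250 g. MCT, a plant alkaloid that injures the lung circulation and is used to model pulmonary arterial hypertension, was given once at 60 mg/kg, and the lungs were taken after 4 weeks. Controls received saline under the skin. The labels give the MCT route both as intraperitoneal and as subcutaneous, and if it was intraperitoneal, route and drug cannot be told apart.

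NK cells and CD8+ T cells kill by releasing granules onto a bound target. Perforin opens the target's membrane, and granzymes, a family of serine proteases, enter through it and start cell death. Release is set by the balance of activating and inhibitory surface receptors, and the T-box factors T-bet and eomesodermin drive the genes of this programme. The lung holds a large pool of NK cells, most of them in its capillary bed. In a bulk sample of lung, fewer such cells and less of a transcript per cell cannot be told apart.

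Summed counts were between 13525912 and 17916134 per sample. The lung surfactant gene Sftpc stood between 5496 and 14855 CPM (read counts scaled by the TMM-adjusted library size), so the labelled tissue's marker was abundant in all 6 samples. Sftpc was lowest in MCT replicate 1, at 5496 CPM against 10386 and 10870 CPM in MCT replicates 2 and 3. MCT replicate 1 also stood apart from the other MCT samples in neutrophil transcripts, with a summed level of 598 CPM over 6 markers against 52.7 and 72.6 CPM. The fold change and call of each of the 10 genes were therefore also computed without it. Whether the 6 samples came from 6 animals, pooled or not, is not stated, so a p-value here measures sample-to-sample spread that may be partly technical. Control replicates 1 to 3 are called C1 to C3 and MCT replicates 1 to 3 are called M1 to M3 from here on.

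Cytotoxic transcripts were lower in MCT lungs. Of the 10 genes 8 fell, 0 rose and 2 did not pass, where 5.11% of all tested genes fell and 8.01% rose, 13.1% in all (adjusted p under 0.05, with Benjamini-Hochberg adjustment of edgeR's quasi-likelihood test). The median log2 fold change of the 10 genes was -1.54, against -0.01 over all tested genes. In 9 of the 10 genes every MCT sample lay below every control, which held for 17% of the tested genes. In 0 of the 10 did every MCT sample lie above every control, against 18.4% of the tested genes. A log2 fold change of -1 or below was found in 8 of the 10, against 4.23%. The 10 genes were chosen with earlier results of these data known, so these contrasts with all tested genes are not a test. The genes that fell were all 5 of the granule, Ncr1, Klrd1 and Tbx21. The falls ran from 2.03-fold for Nkg7 up to 5.31-fold for the Gzmb row and 5.35-fold for Gzma. Counts of Gzmb add to whole numbers with those of Gzmbl2, a granzyme B-like gene, and the sum fell 2.64-fold (adjusted p = 0.047). Klrk1 and Eomes were not called. Of the 8 genes, 5 were called without C2, 4 without C3, 7 without M1 and 5 without M3, when 273, 212, 343 and 324 of all genes were called lower. Prf1, Gzma, Klrd1 and Tbx21 were called whichever sample was left out.

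**Figure D1:**
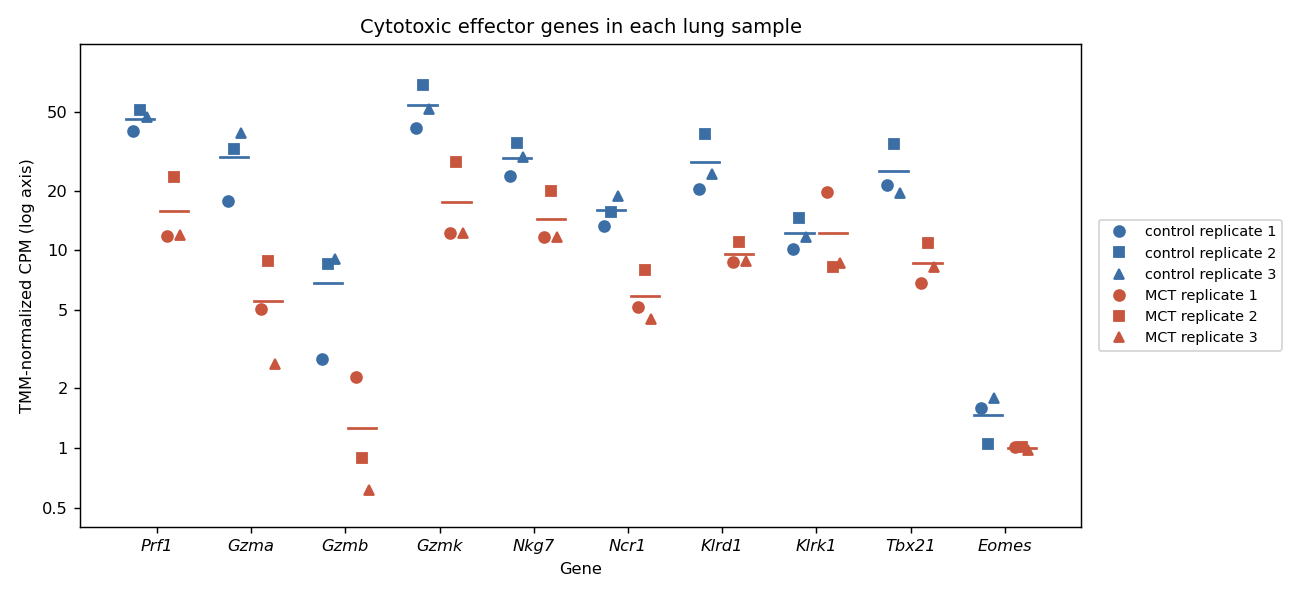
Levels of the 10 cytotoxic genes in each lung sample, in TMM-normalized CPM on a log axis, with blue symbols for the 3 controls, red symbols for the 3 MCT samples and a bar at each group's mean. In all genes but Klrk1 the 3 MCT samples sit below the 3 controls, and in Klrk1 M1 is the highest of the 6 at 19.7 CPM.

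Prf1 encodes perforin, the pore-forming protein of the granule. Its level was 39.8, 50.9 and 47.1 CPM in C1 to C3 and 11.8, 23.4 and 12.0 CPM in M1 to M3. The groups did not overlap, and M2 kept the highest level among the MCT samples. Prf1 fell 2.91-fold, from 45.9 ± 5.63 to 15.7 ± 6.65 CPM (SD, n = 3), with a log2 fold change of -1.54 (SE 0.27, adjusted p = 0.00958).

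Gzma, the gene of granzyme A, a protease that cuts after basic residues, stood at 17.6, 32.5 and 39.0 CPM in the controls and at 5.02, 8.83 and 2.66 CPM in the MCT samples. C1 was the lowest control and still lay above all MCT samples. The fall was 5.35-fold (log2 fold change -2.42, SE 0.43, adjusted p = 0.0103), and 0.446% of the tested genes had a lower log2 fold change. Gzmk, whose granzyme K also cuts after basic residues, lies next to Gzma in the GRCr8 annotation and fell 3.08-fold. Its levels were 41.6, 68.6 and 51.3 CPM in controls against 12.1, 27.9 and 12.3 CPM in MCT samples (log2 fold change -1.62, SE 0.34, adjusted p = 0.0181). As for Prf1, M2 was the highest MCT sample. The call of Gzmk ended without C2 (adjusted p = 0.0705), C3 (adjusted p = 0.0579) or M3 (adjusted p = 0.0596).

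Nkg7 encodes a membrane protein of the granule that is needed for its release. Its levels were 23.6, 34.8 and 29.7 CPM in controls and 11.7, 19.9 and 11.6 CPM in MCT samples. The groups did not overlap, though M2 came near C1. Nkg7 fell 2.03-fold (log2 fold change -1.02, SE 0.25, adjusted p = 0.03), the smallest fall among the 8 called genes. This call ended without C2 (adjusted p = 0.107), C3 (adjusted p = 0.0946), M1 (adjusted p = 0.0871) or M3 (adjusted p = 0.0985).

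The 250 bases before the start of 8 of the 10 genes were read from RefSeq promoter windows of the GRCr8 build, a newer build than the Rnor_6.0 named for the counts. They were searched on both strands for short motifs of factor families known in cytotoxic lymphocytes. The core motif of RUNX factors is TGTGGT. On the other strand its letters read ACCACA. It was in 7 of the 8 windows: Prf1, Gzma, Gzmb, Gzmk, Nkg7, Klrk1 and Eomes, but not Tbx21. It was present in 14.5% of all 33469 windows and in 11.2% of the 11187 windows of tested genes. RUNX3 is a factor that works with T-box proteins in killer lymphocytes. The promoters of the granule genes and of Klrk1 are shown, from 5′ to 3′ along each gene, because they share this motif while the genes differ in their change. Capitals mark the RUNX core on either strand.
Prf1, chr20:29788790-29789039, plus strand: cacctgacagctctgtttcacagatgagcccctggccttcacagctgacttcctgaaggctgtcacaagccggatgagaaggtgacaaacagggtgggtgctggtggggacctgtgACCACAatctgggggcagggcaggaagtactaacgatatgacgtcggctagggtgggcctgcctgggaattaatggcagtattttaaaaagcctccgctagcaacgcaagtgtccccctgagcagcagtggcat
Gzma, chr2:46485697-46485946, minus strand: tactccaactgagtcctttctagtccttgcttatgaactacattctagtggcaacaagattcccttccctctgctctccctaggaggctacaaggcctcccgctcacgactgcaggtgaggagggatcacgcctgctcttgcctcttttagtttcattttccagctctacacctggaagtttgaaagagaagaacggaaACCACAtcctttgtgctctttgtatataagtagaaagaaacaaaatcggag
Gzmk, chr2:46582016-46582265, minus strand: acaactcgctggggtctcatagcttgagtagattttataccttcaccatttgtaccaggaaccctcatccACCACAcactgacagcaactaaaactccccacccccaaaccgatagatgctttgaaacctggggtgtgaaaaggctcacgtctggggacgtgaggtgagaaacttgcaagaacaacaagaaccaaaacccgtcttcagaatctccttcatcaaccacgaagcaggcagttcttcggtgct
Gzmb, chr15:34462470-34462719, minus strand: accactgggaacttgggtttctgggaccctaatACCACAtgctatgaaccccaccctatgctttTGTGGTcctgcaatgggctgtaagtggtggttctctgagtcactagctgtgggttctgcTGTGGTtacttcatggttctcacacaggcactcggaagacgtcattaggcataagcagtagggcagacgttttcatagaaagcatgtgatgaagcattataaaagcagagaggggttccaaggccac
Nkg7, chr1:102981247-102981496, plus strand: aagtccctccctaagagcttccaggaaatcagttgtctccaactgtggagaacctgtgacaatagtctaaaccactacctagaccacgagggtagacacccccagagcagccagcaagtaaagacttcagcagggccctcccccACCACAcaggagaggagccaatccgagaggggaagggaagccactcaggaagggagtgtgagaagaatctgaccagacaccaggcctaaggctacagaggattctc
Klrk1, chr4:164778383-164778632, minus strand: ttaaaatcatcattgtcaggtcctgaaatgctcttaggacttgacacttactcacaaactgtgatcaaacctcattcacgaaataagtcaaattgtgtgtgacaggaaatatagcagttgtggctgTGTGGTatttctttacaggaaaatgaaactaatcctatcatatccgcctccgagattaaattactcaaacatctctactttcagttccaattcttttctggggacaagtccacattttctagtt

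The motif lay 134 to 129 bases before the start of Prf1, 51 to 46 before Gzma, 180 to 175 before Gzmk, 106 to 101 before Nkg7 and 124 to 119 before Klrk1. Gzmb held 3 copies, the nearest 127 to 122 bases before its start. It was thus present in Klrk1, which was not called, as well as in the granule genes. The longer form TGTGGTT, which contains the core, was in 3 of the 8 windows (Gzma, Gzmb and Eomes) and in 4.59% of all windows. The T-box motif GGTGTGA was in 1 of 8 (Gzmk) against 3.22%, and the shorter GGTGTG within it in the same 1 of 8 against 15.4%. The AP-1 motif TGANTCA was in 1 of 8 (Gzmb) against 6.34%, the ETS motif GGAAGT in 2 of 8 (Prf1 and Gzma) against 19.2%, and the GATA motif AGATAA in 0 of 8 against 10.3%. In the windows of tested genes the shares were 3.55% for TGTGGTT, 3.06% for GGTGTGA and 15.4% for GGTGTG. There they were 4.51% for AP-1, 23.9% for ETS and 5.92% for GATA. These matches describe letters in the windows and say nothing of which factor was bound. Runx3 itself, outside the rule for named genes, stood at -0.22 on the log2 scale (adjusted p = 0.823), with levels of 1.07 to 4.77 CPM.

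Gzmb encodes granzyme B, a protease that cuts after aspartate and triggers caspases. Its deposited row fell 5.31-fold, with 2.81, 8.51 and 9.07 CPM in the controls against 2.28, 0.89 and 0.612 CPM after MCT (log2 fold change -2.41, SE 0.58, adjusted p = 0.0302). C1 lay close to M1. These values came from counts that were not whole in any of the 6 libraries. Added to the counts of Gzmbl2, a granzyme B-like gene, they gave whole numbers within 0.015 counts in all 6 samples. No other of the 2367 rows with counts that were not whole did so.

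The sum of Gzmb and Gzmbl2 was 262, 170 and 310 counts in controls and 71, 166 and 42 counts in MCT samples. The share given to Gzmb varied widely, from 15.01 counts beside 151 for Gzmbl2 in M2 to 114 beside 55.8 in C2. The order of samples within a group was therefore different for Gzmb and for the sum. In CPM the sum was 17.4, 12.7 and 16.7 in controls and 4.81, 9.84 and 2.94 in MCT samples, again without overlap. It fell 2.64-fold (log2 fold change -1.40, SE 0.39, adjusted p = 0.047). That call rested on nearly every sample: the adjusted p was 0.107, 0.0902 and 0.133 without C1 to C3, 0.128 without M1, 0.00489 without M2 and 0.0926 without M3. With M2 left out the log2 fold change of the sum was -2.01. Gzmbl2 by itself had -0.93 (adjusted p = 0.336). The Gzmb row alone lost its call without C2 (adjusted p = 0.0996), C3 (adjusted p = 0.107), M2 (adjusted p = 0.0623) or M3 (adjusted p = 0.0889).

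**Figure D2:**
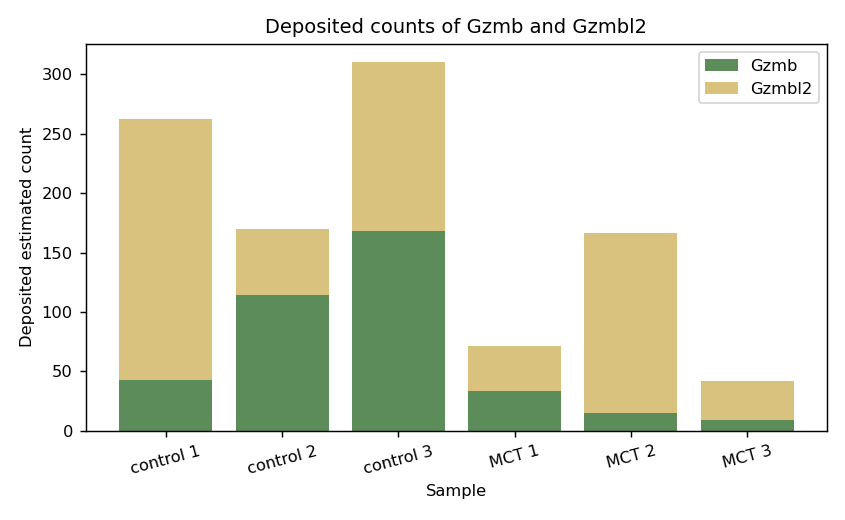
Deposited estimated counts of Gzmb (green) and Gzmbl2 (yellow) in each sample, stacked so that the bar's height is their sum. The sums are 170 to 310 in controls and 42 to 166 in MCT samples, while the green part changes from sample to sample within each group.

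Of the receptor genes Ncr1 and Klrd1 fell and Klrk1 did not pass. Ncr1 encodes NKp46, an activating receptor that marks NK cells across mammals. It stood at 13.3, 15.6 and 18.7 CPM in controls and at 5.15, 7.94 and 4.48 CPM in MCT samples. No MCT sample reached a control. Ncr1 fell 2.7-fold (log2 fold change -1.43, SE 0.25, adjusted p = 0.0102), and without C3 it just missed the threshold (adjusted p = 0.0501).

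Klrd1 encodes CD94, which pairs with NKG2 chains to read class I molecules on other cells. Its levels were 20.4, 38.6 and 24.1 CPM in controls and 8.69, 11.0 and 8.84 CPM in MCT samples. C2 was well above the other controls, and the MCT samples lay close together. The fall was 2.91-fold (log2 fold change -1.54, SE 0.25, adjusted p = 0.00768), the smallest adjusted p of the 10. Klrd1 counts were not whole in 5 of the 6 libraries.

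Klrk1 encodes NKG2D, the activating receptor for stress-induced ligands. Its level was 10.2, 14.6 and 11.6 CPM in controls and 19.7, 8.24 and 8.62 CPM in MCT samples. M1 was the highest of all 6 samples and the other 2 MCT samples were the lowest. On the log2 scale the difference was 0.00 (SE 0.34, adjusted p = 0.996), and it was -0.52 without M1 (adjusted p = 0.217). The estimate was also negative with limma-voom, with upper-quartile factors and on both FPKM scales. In M1 the mast cell markers were also highest, for example Cpa3 at 572 CPM against 139 and 261 CPM in the other MCT samples, as were the neutrophil markers. Their part in the Klrk1 value was not tested.

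Klrd1 and Klrk1 stand side by side in the GRCr8 annotation, so neighbouring receptor genes showed different values. For every 100 CPM of Klrd1 there were 49.8, 37.8 and 48.3 CPM of Klrk1 in controls and 226, 75.0 and 97.5 CPM in MCT samples. The ratio was higher in each MCT sample than in any control. M1 stood well above the other MCT samples. The pair was chosen after the values were seen, so no test is given.

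Of the transcription factor genes Tbx21 fell and Eomes did not pass. Tbx21 encodes T-bet, which drives the granule genes and interferon gamma. It stood at 21.4, 34.3 and 19.4 CPM in controls and at 6.78, 10.8 and 8.20 CPM in MCT samples. The highest MCT sample lay well below the lowest control. Tbx21 fell 2.89-fold (log2 fold change -1.53, SE 0.27, adjusted p = 0.00974).

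Eomes encodes eomesodermin, the related factor of mature NK cells and memory CD8+ T cells. It was scarce, at 14 to 33 counts per sample. Its level was 1.60, 1.04 and 1.78 CPM in controls and 1.02, 1.008 and 0.981 CPM in MCT samples. The MCT samples lay just below the lowest control. On the log2 scale the difference was -0.56 (SE 0.36, adjusted p = 0.335), between -0.75 and -0.20 over the alternatives, and Eomes was called in none of them.

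**Figure D3:**
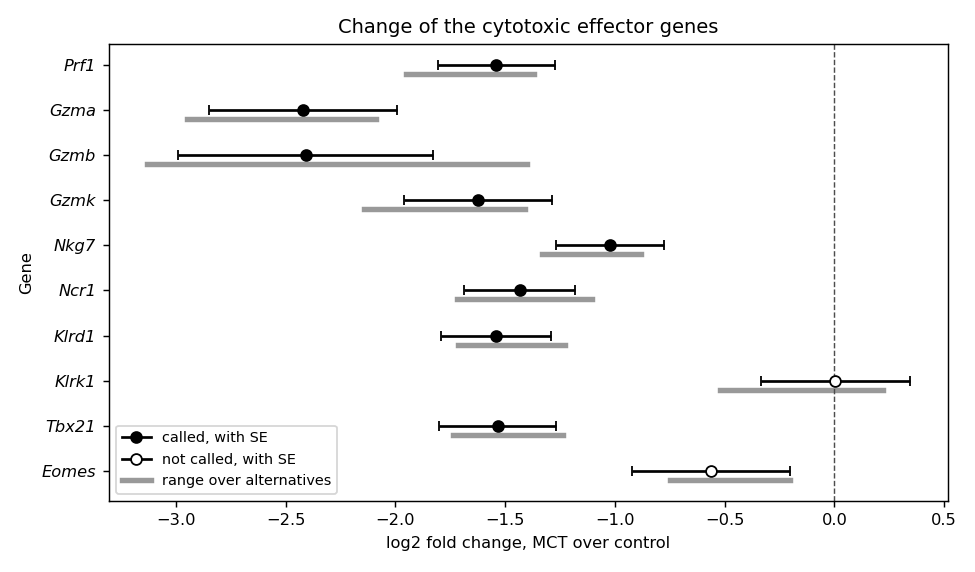
Log2 fold change of each cytotoxic gene in MCT over control lungs, with points for the fit on all 6 samples, error bars for the SE (filled points are called genes) and a grey bar for the range over all alternatives. The 8 called genes lie from -2.42 to -1.02 with no grey bar reaching 0, and the bar of Klrk1 spans 0.

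Per transcript length the genes differed widely in level. In controls Gzmk had the highest FPKM (48.4 ± 12.3, SD, n = 3), followed by Gzma at 33.7 ± 13.2 and Nkg7 at 33.4 ± 6.62 FPKM. Prf1 stood at 18.3 ± 2.46, Klrd1 at 15.9 ± 5.43, Klrk1 at 10.7 ± 1.97 and Tbx21 at 10.3 ± 3.24 FPKM. Gzmb at 6.66 ± 3.48, Ncr1 at 5.20 ± 1.04 and Eomes at 0.707 ± 0.199 FPKM were lowest. In this order of FPKM levels the samples of neighbouring genes overlapped except between Nkg7 and Prf1 and between Ncr1 and Eomes. In MCT lungs the order began with Nkg7 at 16.3 ± 5.24, Gzmk at 15.5 ± 7.91 and Klrk1 at 10.7 ± 5.81 FPKM. Gzma moved from the second to the fifth place, at 6.15 ± 3.44 FPKM, though its MCT samples overlapped those of its neighbours Prf1 and Klrd1.

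The make-up of the granule transcripts was also followed as ratios of CPM within each sample. Gzmk kept pace with Prf1, at 105, 135 and 109 CPM for every 100 of Prf1 in controls and 103, 119 and 102 in MCT samples, with overlap between the groups. Gzma was at 44.3, 63.8 and 82.7 for every 100 of Prf1 in controls and at 42.5, 37.7 and 22.2 in MCT samples. The highest MCT sample lay just below the lowest control. C1 was the lowest control for 8 of the 10 genes and the highest for 0. M2 was the highest MCT sample for 7 of the 10 genes, and M1 was the highest for 3 and the lowest for 4.

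The other genes of the killing machinery, taken from lists chosen by known role, are given list by list. Each list stands beside the median of -0.01 over all tested genes, of which 5.11% fell and 8.01% rose. Among other granule and death effectors 2 of 12 tested genes fell, 0 rose and 10 did not pass, with a median log2 fold change of 0.21. Gzmm, the gene of granzyme M, fell by 1.53 on the log2 scale, from 22.8, 41.7 and 31.8 to 10.04, 15.2 and 7.92 CPM, and lost its call without C2 (adjusted p = 0.052). Tnfsf10, the gene of the death ligand TRAIL, which many cell types make, fell by 2.77, from 177 to 259 CPM in controls to 19.2 to 48.7 CPM in MCT lungs, and was called whichever sample was left out. The most abundant member, the lysosomal Lamp1, stood at 0.29 on the log2 scale (adjusted p = 0.172). Ifng, outside the rule for named genes, had 0.333, 0.223 and 0.108 CPM in controls and no count in MCT lungs, where 3 counts would be 0.178 to 0.21 CPM, and was not tested.

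Among other NK receptor genes 4 of 16 tested fell, 1 rose and 11 did not pass, with a median of -0.25. Klrg1, an inhibitory receptor of mature effector cells, fell by 1.82 on the log2 scale, from 3.99 to 5.21 CPM in controls to 0.814 to 2.02 CPM in MCT samples. Klre1 fell by 1.25, Klrb1c by 1.34 and Klrb1a, of the NKR-P1 family that defines rat NK cells, by 0.71. Left-out samples ended these calls. For Klrg1 they were C2 and M3 (adjusted p = 0.0591 to 0.0652). For Klrb1a they were C2, C3 and M3 (adjusted p = 0.0686 to 0.0737), and for Klrb1c also M1 (adjusted p = 0.123 to 0.157). Any of the 6 ended the call of Klre1 (adjusted p = 0.0566 to 0.131). Klrg1 stood at -1.20 on the log2(FPKM + 1) scale. Klra2, a Ly49 family receptor, went the other way and rose by 1.86, from 4.26, 4.77 and 5.01 CPM to 25.4, 11.6 and 14.1 CPM, with the highest value in M1 as for Klrk1. It was called whichever sample was left out. Ly49 genes are close copies and reads may be split between them. The summed macrophage and monocyte markers were also highest in M1, at 1016 CPM. Which lung cells the Klra2 reads came from was not tested. Fcgr3a, the most abundant of the list, had -0.22 (adjusted p = 0.354).

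Adaptors that several cell types share with NK cells went both ways: 2 of 13 tested fell, 2 rose and 9 did not pass, with a median log2 fold change of 0.04. Fcer1g and Tyrobp, which carry the signal of NK receptors and also of myeloid and mast cell receptors, rose by 0.97 and 0.91. Tyrobp lost its call without C3 (adjusted p = 0.0535). Sh2d1a, the SAP adaptor of T and NK cells, fell by 1.36, a call that ended without C2 or C3 or M1 or M3 (adjusted p = 0.115 to 0.145). Plcg2, a phospholipase of B and NK cell signalling, fell by 0.72 and lost its call without C3 or M3 (adjusted p = 0.0607 to 0.0647).

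Among other lymphocyte transcription factors 4 of 14 tested fell, 2 rose and 8 did not pass, with a median of -0.21. Klf2, which holds lymphocytes in circulation and is also an endothelial gene, fell by 0.97 and was called whichever sample was left out. Ets1 fell by 0.66, Bcl11b by 0.89 and Ikzf3 by 1.16, while Nfil3, needed for NK cell development, rose by 0.76. Each of these 4 calls ended without C2 or C3 or M1 or M3, and those of Bcl11b and Ikzf3 also without M2 (adjusted p = 0.06 to 0.16). Irf8, a myeloid and dendritic cell factor, rose by 1.05 and lost its call without C3 (adjusted p = 0.0516). Hopx, the most abundant and largely an alveolar gene in lung, had -0.34 (adjusted p = 0.19).

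Of the cytokines and receptors that activate these cells 2 of 14 tested fell, 2 rose and 10 did not pass, with a median of -0.08. Il2rb, the receptor chain for interleukins 2 and 15 on NK and T cells, fell by 0.82, from 36.7 to 50.3 CPM in controls to 21.6 to 27.7 CPM in MCT samples. Its call ended without C2 or M1 or M3 (adjusted p = 0.0521 to 0.0645). Il12rb2, a chain of the interleukin 12 receptor, fell by 1.41 and Il12a rose by 1.20, calls that any 1 left-out sample ended (adjusted p = 0.0577 to 0.163). Il18 rose by 0.79 and lost its call without any 1 of the controls (adjusted p = 0.0581 to 0.102). Tgfb1 had 0.50 (adjusted p = 0.124) and was called without M2 (adjusted p = 0.0426).

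Of the homing receptors and chemokines 6 of 17 tested rose, 2 fell and 9 did not pass, with a median log2 fold change of 0.95. Cxcl9, a chemokine that draws cells with CXCR3, rose by 2.15, from 3.65 to 3.99 CPM in controls to 14.0 to 19.8 CPM in MCT samples, and was called whichever sample was left out. Xcr1 rose by 1.45 and lost its call without C2 (adjusted p = 0.0561), with 0.85 on the log2(FPKM + 1) scale. Ccl5, a chemokine that killer lymphocytes make, fell by 1.53, from 47.8, 75.1 and 55.1 to 14.6, 32.2 and 14.6 CPM. Without C2 or C3 or M1 or M3 it was not called (adjusted p = 0.0523 to 0.0727). The other gene that fell was S1pr5, which guides NK cells out of tissue and stands outside the rule for named genes, by 1.69 on the log2 scale. S1pr1, the most abundant, had -0.42 (adjusted p = 0.239).

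Ligands for these receptors were covered thinly, with 7 of 13 symbols in the table and 6 tested. Clec2g, of a gene family that holds ligands of NKR-P1 receptors, fell by 0.86. Its levels were 1668 to 2506 CPM in controls and 1038 to 1220 CPM in MCT samples. It was not called without C2 or C3 or M1 or M3 (adjusted p = 0.0624 to 0.0785). Cfp, the gene of properdin, a complement protein that also binds NKp46, rose by 1.04 and was called whichever sample was left out. The other 4 did not pass, and the median was 0.10.

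The deposited table also carries its own KEGG annotation of NK cell mediated cytotoxicity, brought in after the values were seen. It holds 5 of the 10 genes (Prf1, Gzmb, Ncr1, Klrd1 and Klrk1). Without them 9 of its 99 tested genes fell, 14 rose and 76 did not pass, with a median of -0.08. Over all tested genes 5.11% fell and 8.01% rose. The annotated pathway includes signalling genes of many cell types.

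**Figure D4:**
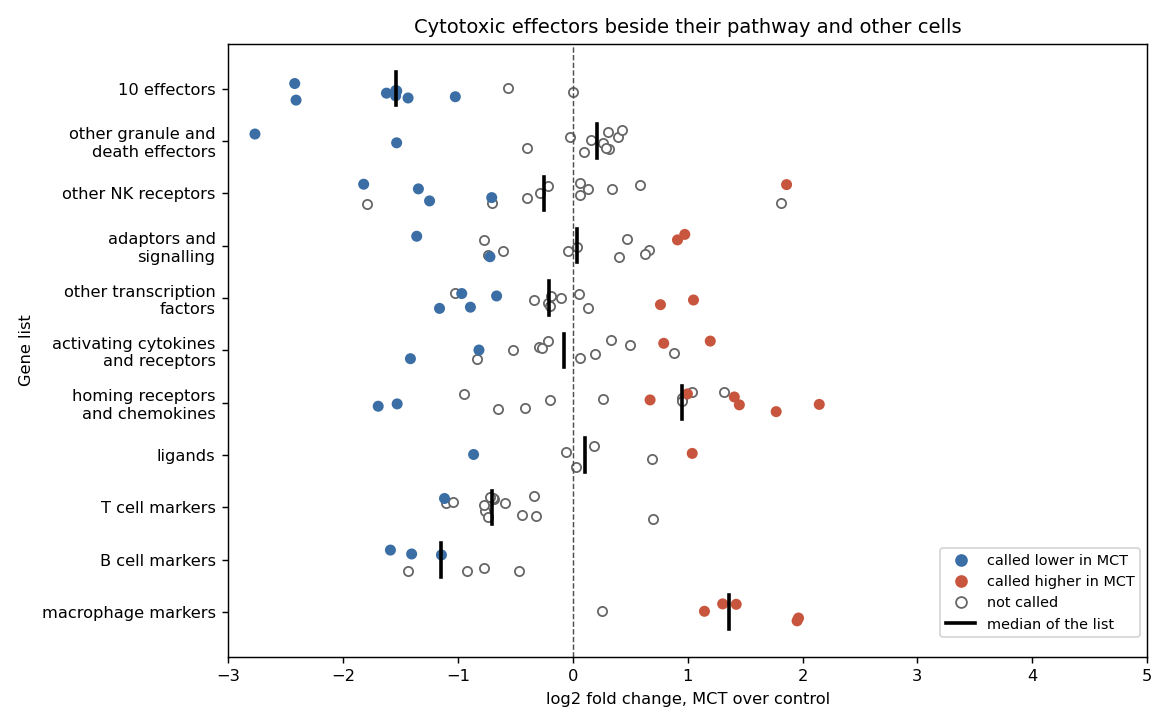
Log2 fold change, MCT over control, of the 10 cytotoxic effectors and of the tested genes in other lists, each point a gene (blue called lower, red called higher, open not called) and each black bar the list's median. The effectors have a median of -1.54, T cell markers -0.71, B cell markers -1.14 and macrophage markers 1.36.

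Markers of other cells moved in the same samples. Of the T cell markers 1 of 14 tested fell, 0 rose and 13 did not pass, with a median log2 fold change of -0.71 and 13 of 14 values below 0. Cd8a, the co-receptor of killer T cells, fell by 1.12, from 18.6, 24.9 and 20.3 to 8.95, 12.3 and 7.92 CPM, and lost its call without C2 (adjusted p = 0.0549). Lck, the most abundant T cell marker, had -0.74 (adjusted p = 0.0663) and was called without M2 (adjusted p = 0.0172) and with DESeq2 (adjusted p = 0.0232). Cd3e, outside the rule, stood at 12.1, 14.97 and 10.03 CPM in controls and at 7.05, 9.96 and 5.88 CPM in MCT samples (log2 fold change -0.69, adjusted p = 0.106). The summed level over the 15 T cell markers was 138 to 219 CPM in controls and 104 to 150 CPM in MCT samples, with overlap. Part of each sum is Cd4, outside the rule and not called, which moved against the other markers. C1 to C3 had 13.1, 27.6 and 20.7 CPM of Cd4, and M1 to M3 had 41.5, 29.5 and 28.6 CPM. Taken singly, 9 of the 14 tested markers had every MCT sample below every control, and only Cd4 had every MCT sample above. Overlap of the sums thus does not hold for most single markers.

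Set against Cd3e and against Ptprc, the cytotoxic transcripts were also lower. Cytotoxic T cells carry both, so neither stands for other cells only. Both also lay lower in every MCT sample than in any control. Ptprc, outside the rule for named genes, had -0.31 on the log2 scale (adjusted p = 0.115). For every 100 CPM of Cd3e the 10 genes summed to 1590, 2000 and 2510 CPM in controls and to 1190, 1200 and 1190 CPM in MCT lungs. For every 100 CPM of Ptprc, the gene of the pan-leukocyte antigen CD45, they summed to 82.4, 128 and 101 CPM in controls and 40.1, 64.5 and 38.1 CPM in MCT lungs. Both ratios were lower in each MCT sample than in any control. They are given without a test, since the genes were chosen with results of these data known.

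B cell markers had a median of -1.14, with 3 of 7 tested lower, Ms4a1 and Cd79b among them, 0 higher and a summed level of 69.1 to 161 CPM in controls and 40.8 to 67.1 CPM in MCT samples. The call of Ms4a1 ended without C2 or C3 or M2 or M3 (adjusted p = 0.0561 to 0.103). That of Cd79b ended without any sample but C1 (adjusted p = 0.0592 to 0.162). Macrophage and monocyte markers rose, with 5 of 6 tested higher (Cd68, Mrc1, Cd14, Adgre1 and Cd163) and 0 lower, and sums of 396 to 500 CPM in controls and 742 to 1016 CPM in MCT samples. Cd163 was not called without C2 or C3 (adjusted p = 0.0528 to 0.0685) and stood at 1.20 on the log2(FPKM + 1) scale, against 1.95. The alveolar macrophage gene Marco, outside the rule for named genes, had 0 counts in all 3 controls and 4, 3 and 0 counts in M1 to M3, and was not tested.

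Of 7 mast cell markers 6 rose and 1, Kit, fell (not called without C2, C3, M2 or M3, adjusted p = 0.0639 to 0.113), with sums of 213 to 266 CPM in controls and 499 to 1474 CPM in MCT samples. The neutrophil list had 0 of 6 tested genes called, also 0 in each direction, and its leading gene S100a9 stood at 456 CPM in M1 against 22.4 and 36.5 CPM in the other MCT samples. Its log2 fold change was 3.05 (adjusted p = 0.086), 0.51 without M1 and between 1.68 and 1.85 with limma-voom, FPKM or the replicate block. Without M2 or M3 it was called (adjusted p = 0.0416 and 0.0452). Of 5 tested pan-leukocyte markers Ptpn6 and Laptm5 rose by 0.58 and 0.47 and 3 did not pass, with sums of 875 to 1103 CPM in controls and 1074 to 1220 CPM in MCT samples. Ptpn6 was not called without C3 (adjusted p = 0.0671), nor Laptm5 without any sample but M2 (adjusted p = 0.0641 to 0.151). The part of these other cells in the lower share of cytotoxic transcripts was not tested.

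**Figure D5:**
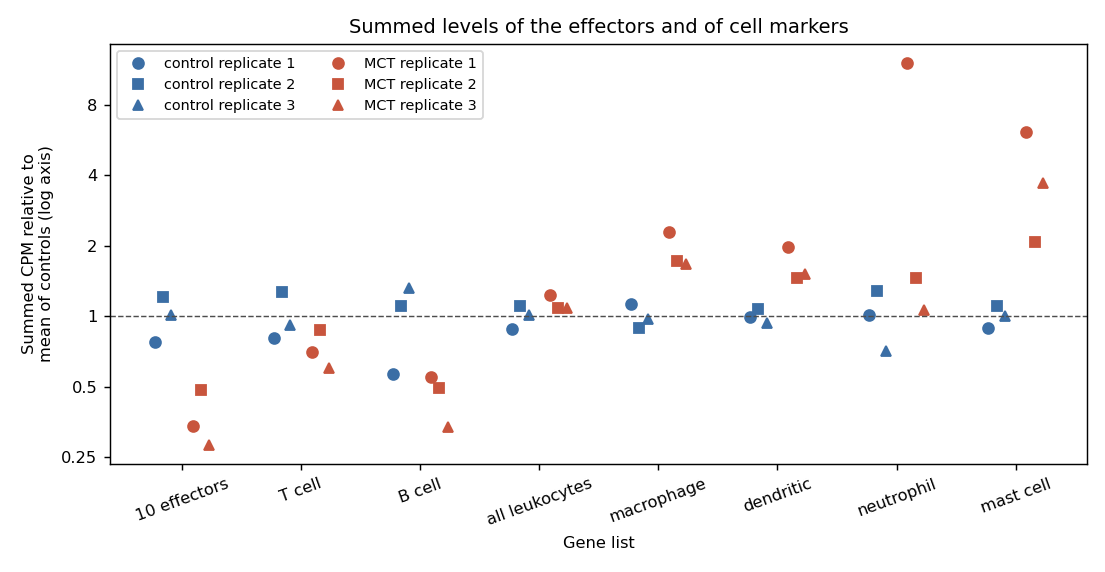
Summed CPM of the 10 effectors and of marker lists in each sample, divided by the mean of the 3 controls, on a log axis with the dashed line at the control mean. The effectors lie below every control in all 3 MCT samples, and macrophage and mast cell sums lie above every control. The T cell sums, which include the higher Cd4, overlap.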

How the data were processed

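PolyA RNA of 6 whole-lung samples was sequenced. The deposited estimated counts and the FPKM values, both made by the authors, are given per gene and sample, per the file headers. Bowtie2, TopHat2 2.0.3.12 and Rnor_6.0 are named in the submitters' processing notes. The counter, the annotation release, strand and the handling of reads that fit several loci were not given in any source used here. Between 90.7% and 91.5% of counts above 0 were whole, and all were rounded for the tests.

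All 15250 genes passing filterByExpr (minimum count 10, minimum total 15) were fitted in edgeR 4.0.16 (R 4.3.3) with TMM and the quasi-likelihood test, with calls at 0.05 after Benjamini-Hochberg adjustment of p. The fits were tested on simulated counts with the same dispersion for all genes, a simpler setting than these data, and no outcome is given here. The test had been fixed for counts or rounded counts. SEs come from the F statistic. Alternatives were DESeq2 1.42.0, limma-voom (limma 3.58.1), other size factors and filters, FPKM with a pseudocount of 1 or 0.1, a replicate block, summed loci and each sample left out. The sum of Gzmb and Gzmbl2 was added after seeing the data. Depth limits cover counting error only.

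The 10 genes and the lists were chosen with earlier results of these data known. Named besides the 10 are, per list, the called genes if 6 or fewer, otherwise the 4 with the smallest p, and the most abundant tested gene. Others are marked as outside this rule, and some genes under it are not reported here. Where a symbol has several loci, the one with the highest mean count was used. Promoter windows matched 8 of 10 symbols in RefSeq (GRCr8).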

Additional observations from a re-analysis of the deposited data

How the results depend on the processing

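The number of cytotoxic genes called lower was 8 under all scalings, filters, test tools and FPKM scales, and 0 were called higher in any alternative. It ranged from 4 to 8 when 1 sample was left out. Over all genes, leaving out 1 sample gave 212 to 978 lower and 481 to 1394 higher calls, against 779 and 1221. With the replicate number as a block 7 of the 10 genes were called lower, Gzmb being lost (adjusted p = 0.0826), and over all genes 546 were lower and 917 higher. Deviations of same-numbered samples from their group means had correlations of -0.0583, -0.0695 and -0.00241. For differently numbered samples they were -0.0755 to 0.126. What the number stands for is not stated, and these values cannot tell whether same-numbered samples were handled together. The sign of Klrk1 turned from 0.00 to -0.10 with limma-voom, -0.012 with upper-quartile factors, -0.10 and -0.11 on the log2(FPKM + 1) and log2(FPKM + 0.1) scales, -0.10 with the replicate block, -0.11 and -0.02 without control replicates 1 and 3, and -0.52 without MCT replicate 1, with a range of -0.52 to 0.22 over left-out samples. The cause was not tested. Bcl11b, Ikzf3, Nfil3, Il12a, Il12rb2 and Cd79b also lost their calls with limma-voom (adjusted p = 0.0503 to 0.0893). Of 170 values of the 10 genes under alternatives, 149 kept direction and call, 13 lost the call and these 8 turned. Among 54 other named genes 768 of 918 values were the same, 144 lost the call, 6 gained it and 0 turned. Eomes (14 to 33 counts) and Gzmb (8.73 to 168 counts) had the fewest counts of the 10.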

Other observations

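Of 6 tested markers of innate lymphoid cells of type 2 and of Th2 cells 2 were higher in MCT lungs, 0 were lower and 4 did not pass. Il1rl1, the interleukin 33 receptor that mast cells carry too, rose by 2.03 on the log2 scale, from 5.06, 5.44 and 6.25 CPM to 36.0, 12.4 and 20.2 CPM, and was called whichever sample was left out. Ptgdr2 rose by 1.40, a call that ended without any sample but MCT replicate 3 (adjusted p = 0.0523 to 0.0992), and stood at 0.77 on the log2(FPKM + 1) scale. Gata3, the defining factor of both cell types and outside the rule for named genes, had -1.09 (adjusted p = 0.0812), at 6.65, 10.9 and 12.1 CPM in controls and 2.64, 6.52 and 4.76 CPM in MCT samples. Among dendritic cell markers 2 of 6 tested rose (Irf8 and Xcr1) and 0 fell. Of 7 lung parenchyma markers Cdh5, the endothelial cadherin, fell by 0.82, a call that ended without any sample but MCT replicate 2 (adjusted p = 0.0826 to 0.131), and Sftpc had -0.59 (adjusted p = 0.209).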
